A study of Homo sapiens with 4 samples.

Results

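GATA factors are transcription factors with a pair of zinc fingers that bind DNA at the letters GATA, and the FOG (friend of GATA) proteins are cofactors that bind GATA zinc fingers and not DNA. All 8 genes of the human families, the 6 GATA genes GATA1 to GATA6 and the 2 FOG genes ZFPM1 (FOG1) and ZFPM2 (FOG2), were chosen by symbol from tables of 28285 gene rows, and each had exactly 1 row. The study compared sorted fractions of cells grown out of H1, a widely used line of human embryonic stem cells, in which an eGFP reporter had been knocked into GATA2 (genotype written GATA2w/eGFP in the design text). GFP-positive cells were eGFP+CD34+CD31+CD43- and were labelled hemogenic endothelium, which is known to give rise to blood cells; GFP-negative cells were eGFP-CD34+CD31+CD43- and were labelled endothelial cells, while the source name of all 4 libraries reads hemogenic endothelium. Both fractions carried the knock-in, and all 4 titles also name Cre, whose role the labels do not give. Whether the line was 1 clone, and whether transcripts of the reporter allele entered the GATA2 row, is not given in the sources used here.

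GATA1, GATA2 and GATA3 are known as the blood GATA factors. GATA2 acts in blood stem and progenitor cells and in endothelium, GATA1 drives red cell, megakaryocyte and mast cell genes, and GATA3 acts in T cells and innate lymphoid cells. GATA4, GATA5 and GATA6 are known for roles in heart and in endoderm-derived organs. ZFPM1 works with GATA1 in red cells and megakaryocytes, and ZFPM2 works with GATA4 in the heart; both recruit corepressors such as the NuRD and CtBP complexes. During blood formation GATA1 takes the place of GATA2 at many shared sites, an exchange known as the GATA switch.

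Each fraction had 2 libraries, numbered by the titles. Levels were TPM, a measure corrected for gene length and scaled so that each library has the same sum, so levels of different genes can be compared within a library. TPM keeps no read totals, so depth is unknown and levels of a few TPM may rest on few reads. Across all rows, log2(TPM + 1) had a Pearson correlation of 0.961 for the GFP-positive pair, 0.965 for the GFP-negative pair and 0.952 to 0.959 across fractions, so the pairs within a fraction were only slightly closer than those across. Nothing in the labels ties a replicate to its own culture, so the spread between these libraries may be technical. The p-value of each gene rests on that spread, drawn toward a trend over all tested genes. In bulk RNA, fewer cells that express a gene and less RNA per cell cannot be told apart.

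The endothelial label was checked against 12 endothelial markers, such as CDH5, KDR and TIE1. All 12 were detected in both fractions, though CLDN5 was listed at 0 in GFP-positive replicate 2. Their summed level was 2120 and 2265 TPM in GFP-positive libraries, against 4127 and 3659 TPM in GFP-negative libraries; none passed the test and all 12 had a log2 fold change below 0.

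The DNA just upstream of the start sites of the members is shown for GATA2, GATA1 and GATA3, the called member, the member with the widest fold and the member of opposite direction, since GATA factors are known to act on each other's genes. Start windows from RefSeq (GRCh38.p14) were read for 5 of the 8 members: GATA1, GATA2 (2 windows), GATA3 (6 windows), GATA6 and ZFPM1. GATA4 and ZFPM2 were left out of the search, and GATA5 had no window. A window ran from 250 bases before to 50 bases after a start, and the 250 bases before the start are printed for 4 windows, 5′ to 3′, with the GATA core (GATA on either strand, so TATC where it lies on the other) in capitals.
GATA2, first start (chr3:128493202-128493451, minus strand): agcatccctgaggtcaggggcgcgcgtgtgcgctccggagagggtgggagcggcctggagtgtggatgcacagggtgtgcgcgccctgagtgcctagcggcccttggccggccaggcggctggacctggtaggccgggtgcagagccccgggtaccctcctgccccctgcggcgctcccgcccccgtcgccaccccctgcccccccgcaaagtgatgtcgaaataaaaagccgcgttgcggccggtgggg
GATA2, second start (chr3:128488531-128488780, minus strand): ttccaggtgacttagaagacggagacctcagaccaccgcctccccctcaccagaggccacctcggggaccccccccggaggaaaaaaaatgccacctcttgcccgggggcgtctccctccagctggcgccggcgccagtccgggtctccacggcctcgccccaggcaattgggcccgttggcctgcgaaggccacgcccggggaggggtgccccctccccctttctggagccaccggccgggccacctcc
GATA1 (chrX:48786340-48786589, plus strand): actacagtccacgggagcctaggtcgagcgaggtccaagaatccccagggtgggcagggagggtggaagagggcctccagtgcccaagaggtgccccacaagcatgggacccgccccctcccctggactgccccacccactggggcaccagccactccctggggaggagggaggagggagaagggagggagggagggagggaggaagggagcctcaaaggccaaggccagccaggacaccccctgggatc
GATA3, second start (chr10:8049604-8049853, plus strand): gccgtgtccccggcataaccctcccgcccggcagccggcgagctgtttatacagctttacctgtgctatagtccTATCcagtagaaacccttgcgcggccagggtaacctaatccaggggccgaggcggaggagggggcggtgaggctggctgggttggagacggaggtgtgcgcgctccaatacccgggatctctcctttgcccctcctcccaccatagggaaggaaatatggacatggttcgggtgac

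The GATA2 and GATA1 windows hold no GATA core, and the GATA3 window holds 1, starting 176 bases before the start. The fuller GATA site was searched on both strands in 4 spellings, each of which contains the core. The spellings that open with A were AGATAA (A at the end) or AGATAG (G at the end). The spellings that open with T were TGATAA (A at the end) or TGATAG (G at the end). None of the 11 member windows held a full site and 3 held the core, all of them windows of GATA3. Over 35116 such windows outside chromosome 8, 25% held a full site and 49.7% held the core. The member windows were 54.3% to 83.0% G and C, against a median of 58.7% over all windows. An absent match says only that these letters are not in the window.

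All 8 members were detected, and the fractions did not overlap for any of them: 7 had both GFP-positive libraries above both GFP-negative libraries, and GATA3 had both below. Such separation was common in these data, at 44.3% of the 15425 genes tested in either direction, 22.8% higher and 21.5% lower. Of the 8 members, 1 rose (GATA2), 0 fell and 7 did not pass a Benjamini-Hochberg adjusted p of 0.05 in limma, a linear model fitted to log2(TPM + 1) across all tested genes. Over all tested genes, 0.447% passed in either direction, 0.123% (19 of 15425) higher and 0.324% lower. All 8 had an unadjusted p under 0.05 in limma, from 2.14e-05 to 0.0386, against 14.1% of all tested genes (6.69% higher and 7.38% lower). The median log2 fold change of the members was 1.12, against 0.02 over all tested genes. These counts and the median include GATA2, which carries the reporter, so they are not independent of the sort. The added 1 TPM shrinks the fold changes of low genes. Of the 8, 7 had at least 1 TPM in every library. GATA1 had not, as GFP-negative replicate 2 was listed at 0. Its GFP-negative libraries alone would not have carried it past the filter on low values.

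**Figure D1:**
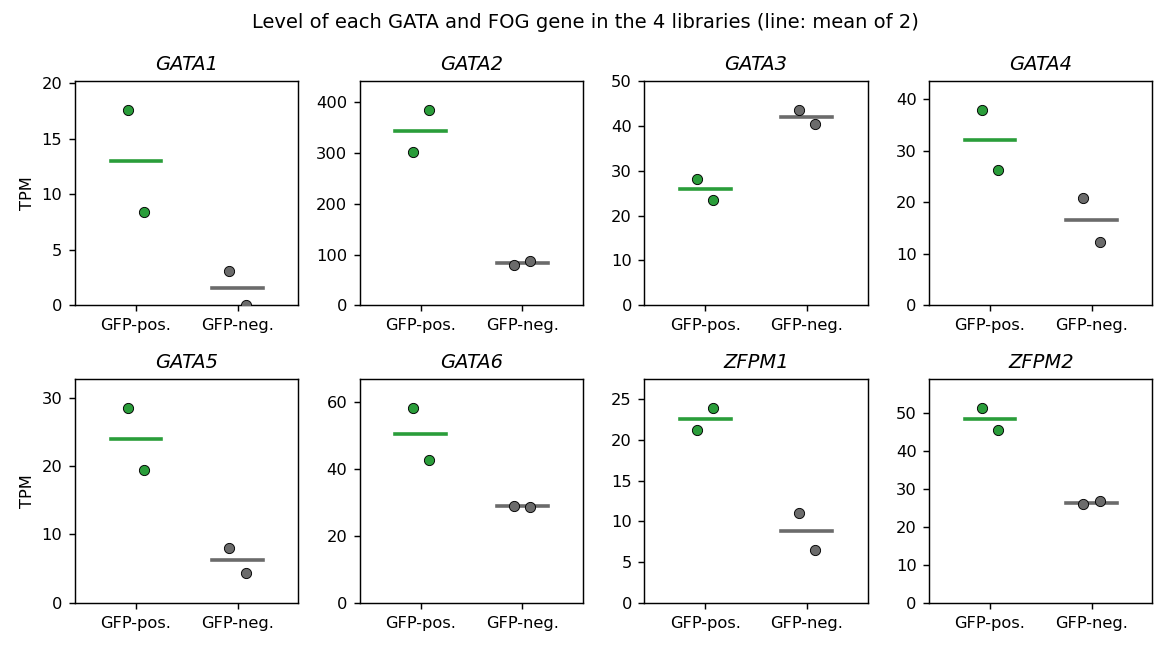
TPM of each GATA and FOG gene in each library (vertical axis from 0, a scale of its own in each panel), GFP-positive left of GFP-negative; points are libraries and lines are means of 2. Both GFP-positive points lie above both GFP-negative points for 7 genes, and below them for GATA3.

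**Figure D2:**
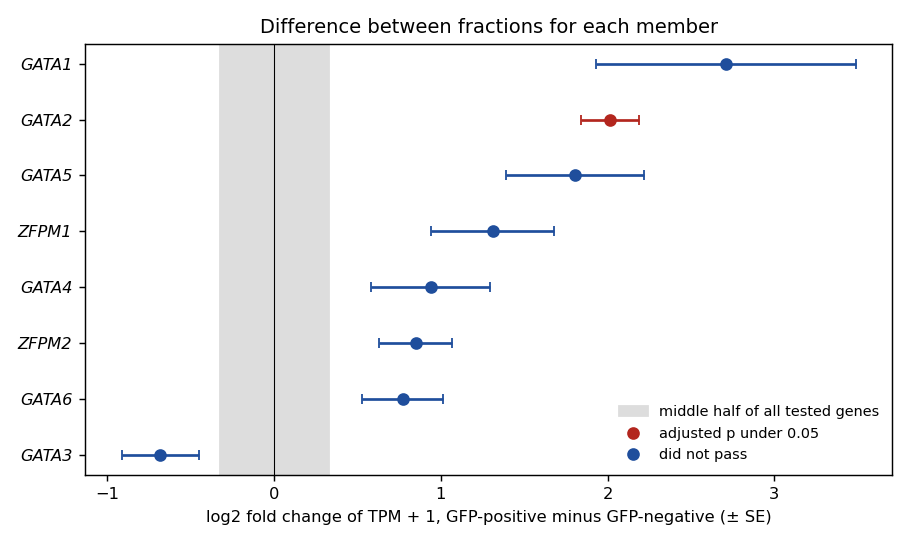
Log2 fold change of TPM + 1 (GFP-positive minus GFP-negative, limma) for each member, with bars of 1 SE; the grey band spans the quartiles of all tested genes, from -0.32 to 0.33. GATA2 is the member past the adjusted threshold, and all members lie outside the band.

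GATA2 (ENSG00000179348) lies on chromosome 3, from 128479427 to 128493185 on the minus strand, in GENCODE v29 on GRCh38, from which all gene positions here are taken. It had 302 and 385 TPM in GFP-positive libraries, against 80.2 and 87.3 TPM in GFP-negative libraries. It was the highest of the 8 members in every library, also in cells sorted for lack of the reporter. The reporter sits in this gene, so its difference is a check of the sort and not a separate result. GFP-positive cells averaged 343 ± 58.2 TPM, against 83.7 ± 5.03 TPM for GFP-negative cells (SD, n = 2 each), which is 4.10-fold higher. Its log2 fold change of 2.01 ± 0.17 (SE) passed (limma adjusted p = 0.0316) and ranked 10 among all tested genes by p. The call was lost, with a like fold, at a pseudocount of 0.1 TPM (adjusted p = 0.0638), with no filter (0.0699) and without a variance trend (0.135), where limma called no gene at all.

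Of the genes on either side of GATA2, RPN1, the nearest protein-coding gene to the right and a subunit of the oligosaccharyltransferase, had 234 and 317 TPM in GFP-positive libraries, against 247 and 338 TPM in GFP-negative libraries. DNAJB8, the nearest to the left, was listed at 0.26 and 0 TPM in GFP-positive libraries and at 0 in both GFP-negative libraries. Over all 8 members, 11 of the 16 nearest protein-coding genes were tested and 0 of them passed in limma (the lowest adjusted p was 0.247). Over all tested genes, 22.8% stood higher and 21.5% lower without overlap. Of the 11 tested neighbours, 5 overlapped between fractions, 4 were higher and 2 were lower in GFP-positive cells. HDAC6, a deacetylase gene 7066 bases from GATA1, was 1 of the 4, at 235 and 212 TPM in GFP-positive libraries, against 172 and 137 TPM in GFP-negative libraries (limma adjusted p = 0.247).

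GATA1 (ENSG00000102145; chromosome X, 48786554 to 48794311, plus strand) was the lowest member in every library. It had 17.6 and 8.40 TPM in GFP-positive libraries, against 3.08 and 0 TPM in GFP-negative libraries. The fractions did not overlap, but the GFP-positive libraries differed from each other by more than the 5.32 TPM between the lower of them and the nearest GFP-negative library. Its log2 fold change was the widest of the members at 2.71 ± 0.78 (SE) and did not pass (limma adjusted p = 0.212). Because GFP-negative replicate 2 is listed at 0, the size depends on the pseudocount: it was 4.44 with 0.1 TPM, and 1.70 without GFP-negative replicate 2. The drop from GATA2 to GATA1 was steep in both fractions: GATA1 made up 3.72% and 1.66% of the summed GATA TPM in GFP-positive libraries, against 1.67% and 0% in GFP-negative libraries, and these shares overlap.

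Markers of red cells lay on the same side of 0 as GATA1. Of 14 erythroid markers, 10 were tested, all 10 had a log2 fold change above 0, and 1 rose. HBG1 and HBA1 would not have passed the filter on low values by their GFP-negative libraries alone. HBA2 and ALAS2 would not have either, and they overlapped between fractions. The summed level of the 14 was 567 and 320 TPM in GFP-positive libraries, against 97.7 and 91.7 TPM in GFP-negative libraries. As with GATA1, GFP-positive replicate 1 stood highest. Of the defining markers, AHSP was listed at 0 in all 4 libraries and SLC4A1 at 0 in all but GFP-negative replicate 2 (0.38 TPM). Their part in the difference of GATA1 was not tested.

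GATA3 (ENSG00000107485; chromosome 10, 8045378 to 8075203, plus strand) was the member with the opposite direction. It had 28.1 and 23.6 TPM in GFP-positive libraries, against 43.6 and 40.4 TPM in GFP-negative libraries. GFP-positive cells averaged 25.9 ± 3.18 TPM, against 42.0 ± 2.24 TPM for GFP-negative cells (SD, n = 2 each). The gap between the fractions was wider than the spread within either, but its log2 change of -0.68 ± 0.23 (SE) did not pass (limma adjusted p = 0.277). GATA3 ranked 6 among the 8 members in each GFP-positive library and 2 in each GFP-negative library.

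GATA3-AS1, a non-coding transcript that overlaps GATA3 on the other strand, also stood lower. It had 3.96 and 3.07 TPM in GFP-positive libraries, against 20.5 and 6.55 TPM in GFP-negative libraries, and it did not pass (log2 fold change -1.50 ± 0.59, SE; limma adjusted p = 0.337). Whether counting used strand is not given in the sources used here, and without strand, reads of GATA3 and GATA3-AS1 cannot be told apart where they overlap.

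Over 8 markers of T and innate lymphoid cells, the summed level was 26.8 and 19.6 TPM in GFP-positive libraries, against 22.7 and 14.0 TPM in GFP-negative libraries, which overlap. Of the chains of the T cell receptor complex, CD3E was listed at 0 in all libraries but GFP-negative replicate 1 (0.90 TPM), while CD3D had 3.05 and 4.61 TPM in GFP-positive libraries, against 2.91 and 3.30 TPM in GFP-negative libraries. CD4, the co-receptor of helper T cells, had 7.90 and 7.94 TPM in GFP-positive libraries, against 5.53 and 3.71 TPM in GFP-negative libraries. IL7R and CD3G lay below 0, on the same side as GATA3. IL7R had 0.52 and 2.28 TPM in GFP-positive libraries, against 7.25 and 1.89 TPM in GFP-negative libraries, which overlap. Of the 8, 5 were tested, 3 of them above 0, and 0 passed; their part in the difference of GATA3 was not tested. IL2RB, a receptor chain for interleukin 2 and chosen after its values were seen, had 16.7 and 14.3 TPM in GFP-positive libraries, against 2.74 and 2.98 TPM in GFP-negative libraries, the opposite direction to GATA3.

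GATA4, GATA5 and GATA6, the heart and endoderm group, were all detected in cells sorted for endothelial surface proteins. GATA6 (ENSG00000141448; chromosome 18, 22169443 to 22202528, plus strand) had 58.3 and 42.7 TPM in GFP-positive libraries, against 29.03 and 28.65 TPM in GFP-negative libraries. It ranked 2 or 3 among the members in every library. GFP-positive cells averaged 50.5 ± 11.01 TPM, against 28.8 ± 0.269 TPM for GFP-negative cells (SD, n = 2 each), a log2 fold change of 0.77 ± 0.24 (SE) that did not pass (limma adjusted p = 0.25).

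GATA4 (ENSG00000136574; chromosome 8, 11676959 to 11760002, plus strand) had 37.9 and 26.35 TPM in GFP-positive libraries, against 20.7 and 12.3 TPM in GFP-negative libraries. The gap between the fractions, 5.61 TPM, was smaller than the spread within either fraction. Its log2 fold change of 0.94 ± 0.36 (SE) did not pass (limma adjusted p = 0.324); it was 0.58 when GFP-negative replicate 2 was left out.

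GATA5 (ENSG00000130700; chromosome 20, 62463497 to 62475970, minus strand) had 28.5 and 19.5 TPM in GFP-positive libraries, against 8.09 and 4.44 TPM in GFP-negative libraries. The mean of 24.0 ± 6.38 TPM for GFP-positive cells was 3.83 times that of 6.27 ± 2.58 TPM for GFP-negative cells (SD, n = 2 each), close to the ratio of GATA2. Its log2 fold change of 1.80 ± 0.42 (SE) did not pass (limma adjusted p = 0.148), the lowest adjusted p of the 7 that missed. Set against GATA4 within each library, GATA5 stood at 0.752 and 0.739 of the GATA4 level in GFP-positive libraries, against 0.39 and 0.361 in GFP-negative libraries. This ratio varied little within a fraction, although both genes were higher in replicate 1 than in replicate 2 of each fraction. With 2 libraries a fraction, an exact permutation test of such a value cannot give a p below 0.333, which this ratio reached (two-sided).

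GATA6 has an antisense partner, GATA6-AS1 (listed in the tables by a clone name and matched here by its identifier). It had 80.7 and 19.6 TPM in GFP-positive libraries, against 22.9 and 8.46 TPM in GFP-negative libraries. These overlap, and GFP-positive replicate 1 stands alone at the top (limma adjusted p = 0.444). Reads of GATA6 and GATA6-AS1 cannot be told apart without strand.

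Markers of heart muscle and endoderm were low. Of 10 cardiomyocyte markers, the summed level was 66.5 and 38.3 TPM in GFP-positive libraries, against 46.5 and 33.3 TPM in GFP-negative libraries, which overlap, with 5 of 7 tested above 0 and 0 passing; MYL2 was listed at 0 in all 4. The 9 endoderm markers summed to 22.04 and 21.74 TPM in GFP-positive libraries, against 90.25 and 109.84 TPM in GFP-negative libraries, the opposite direction to GATA4 and GATA6. Of these, 5 of 7 tested were below 0 and 0 passed, and FOXA2, a defining factor of endoderm, stayed under 1 TPM in all 4 libraries. APOA1 and SOX17 made up most of the GFP-negative sum, and SOX17 is also 1 of the 12 endothelial markers. TTR stood the other way, at 6.14 and 6.18 TPM in GFP-positive libraries, against 3.06 and 4.66 TPM in GFP-negative libraries. The 9 markers of mesenchyme and smooth muscle summed to 1511 and 1603 TPM in GFP-positive libraries, against 728 and 957 TPM in GFP-negative libraries. Of these, 8 of 9 were above 0 and 0 passed. Most of the sum was TAGLN, at 802 and 865 TPM in GFP-positive libraries against 396 and 547 TPM in GFP-negative libraries, and COL1A1. All 9 were detected, but ACTA2, PDGFRA, PDGFRB, LUM and DCN overlapped between fractions, and LUM was listed at 0 in GFP-positive replicate 2. Their part in the differences of GATA4, GATA5 and GATA6 was not tested.

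Both FOG cofactors had higher values in GFP-positive libraries. ZFPM1 (ENSG00000179588; chromosome 16, 88453317 to 88537016, plus strand) had 21.3 and 23.9 TPM in GFP-positive libraries, against 11.1 and 6.46 TPM in GFP-negative libraries. The fractions were apart by 10.2 TPM, more than the spread within either, but the log2 fold change of 1.31 ± 0.37 (SE) did not pass (limma adjusted p = 0.206). ZFPM2 (ENSG00000169946; chromosome 8, 104590733 to 105804532, plus strand) had 51.25 and 45.55 TPM in GFP-positive libraries, against 25.9 and 26.9 TPM in GFP-negative libraries. GFP-positive cells averaged 48.4 ± 4.03 TPM, against 26.4 ± 0.658 TPM for GFP-negative cells (SD, n = 2 each), a log2 fold change of 0.85 ± 0.22 (SE) that did not pass (limma adjusted p = 0.177). ZFPM2, the FOG protein known from the heart, was the higher of the pair in all 4 libraries, at 2.41 and 1.90 times the ZFPM1 level in GFP-positive libraries, against 2.34 and 4.16 times in GFP-negative libraries, which overlap.

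In order of level in GFP-positive cells the members ran GATA2, GATA6, ZFPM2, GATA4, GATA3, GATA5, ZFPM1 and GATA1. The libraries of GATA6 and ZFPM2 overlapped, and so did those of GATA4 and GATA3, GATA3 and GATA5, and GATA5 and ZFPM1, so these neighbours did not differ beyond the spread over libraries, although GATA4 stood above GATA3 within each of the 2. In GFP-negative cells the order was GATA2, GATA3, GATA6, ZFPM2, GATA4, ZFPM1, GATA5 and GATA1, and ZFPM1 and GATA5 were the neighbours that overlapped. GATA2 stood above 98.5% of all gene rows in GFP-positive cells and above 91.2% in GFP-negative cells.

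In the make-up of the GATA family with GATA2 in the sum, the shares of GATA2, GATA3 and GATA6 did not overlap between the fractions. Those of the other 3 genes did. The 6 genes summed to 473 and 505 TPM in GFP-positive libraries, against 185 and 173 TPM in GFP-negative libraries. GATA2 held 64.0% and 76.1% of that sum in GFP-positive libraries, against 43.4% and 50.4% in GFP-negative libraries. GATA3 held 5.95% and 4.67% in GFP-positive libraries, against 23.6% and 23.3% in GFP-negative libraries, a share that was nearly the same in the GFP-negative pair. GATA6 held 12.3% and 8.45% in GFP-positive libraries, against 15.7% and 16.6% in GFP-negative libraries. Leaving GATA2 out of the sum, GATA3 still held 16.5% and 19.6% in GFP-positive libraries, against 41.7% and 47.1% in GFP-negative libraries. GATA6, whose share of the full sum was lower in GFP-positive libraries, was on the other side once GATA2 was left out, at 34.2% and 35.4% in GFP-positive libraries, against 27.8% and 33.4% in GFP-negative libraries. GATA5 held 16.7% and 16.2% of the sum without GATA2 in GFP-positive libraries, against 7.74% and 5.18% in GFP-negative libraries. GATA1 held 10.3% and 6.97% of it in GFP-positive libraries, against 2.95% and 0% in GFP-negative libraries. GATA4 held 22.2% and 21.9% in GFP-positive libraries, against 19.8% and 14.3% in GFP-negative libraries. The shares of these 3 genes overlapped in the full sum only. The ratio of GATA2 to GATA3 was 10.8 and 16.3 in GFP-positive libraries, against 1.84 and 2.16 in GFP-negative libraries. Shares of 1 sum move together, so these are not separate results, and with 2 libraries a fraction the exact permutation p of each is 0.333 at the least.

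**Figure D3:**
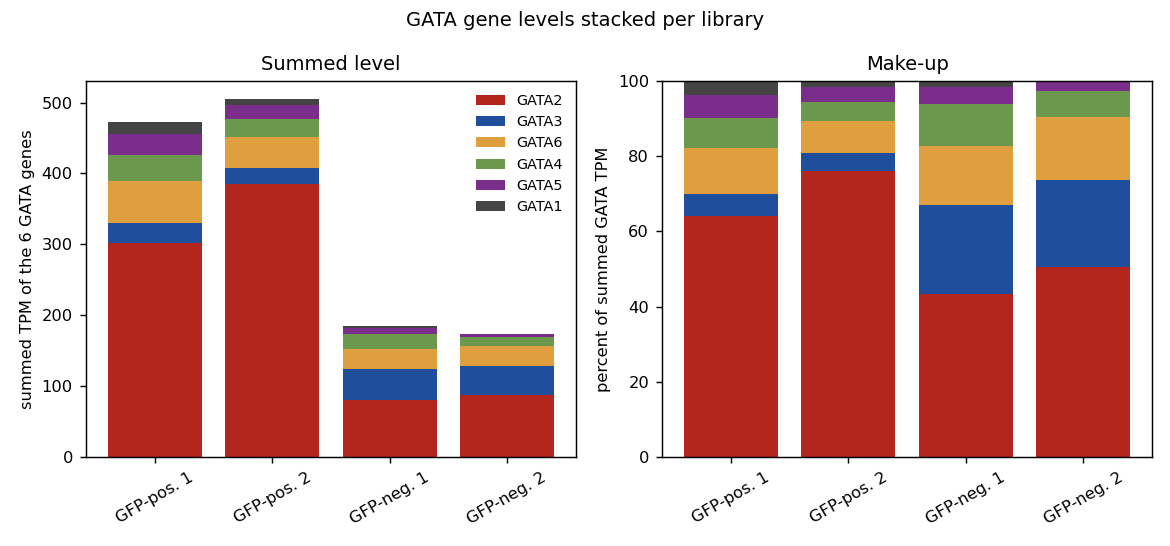
Stacked TPM of the 6 GATA genes in each library (left) and their percent of the summed GATA TPM (right), GFP-positive libraries left of GFP-negative ones. GATA2 takes 64.0% and 76.1% in GFP-positive libraries against 43.4% and 50.4% in GFP-negative libraries, and GATA3 takes 5.95% and 4.67% in GFP-positive libraries against 23.6% and 23.3% in GFP-negative libraries.

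Genes whose levels over the 4 libraries ran most like a member's were sought among 9947 tested genes with a mean of at least 10 TPM, by the distance between log2(TPM + 1) values centred on each gene's own mean. With 4 libraries this mostly ranks genes by how far and which way the fractions differ, and it is given as a description. The nearest to GATA2 was OSBPL6, at 19.2 and 24.7 TPM in GFP-positive libraries, against 4.56 and 5.30 TPM in GFP-negative libraries, followed by COL16A1, CCDC3, HIST3H2A and FZD2. Nearest to GATA1 were MIR4517, FREM1, TECRL, HBE1 and AMHR2. HBE1, the embryonic beta-like globin gene, had 113 and 36.1 TPM in GFP-positive libraries, against 7.87 and 2.72 TPM in GFP-negative libraries. Nearest to GATA3 were EXD3, RAP2A, KDELC1, TNFAIP1 and TBC1D8, nearest to GATA6 were ARHGAP11B, FAM20B, DTD2, NCAPH and NENF, and nearest to ZFPM1 were PRKCB, NXF3, ATF7IP2, DNAJC16 and BOLA3. None of these 25 genes passed in limma.

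The genes that GATA and FOG proteins work with, or are known to regulate, were read from 11 lists of 226 genes in the tables, of which 182 were tested, 6 rose and 3 fell. The calls of GFI1, HBG2, KEL and MYL4 held with any 1 library left out; those of the other 5 did not all hold, as given with each. The lists share genes, and the members of a list need not be regulated by a GATA factor in these cells. They also hold all the erythroid, megakaryocyte, mast cell, lymphoid, cardiomyocyte and endoderm markers and most endothelial ones. Markers and targets of a cell type are therefore not separate results. Of 23 GATA-binding partners in blood and endothelium, 2 rose, 0 fell and 21 did not pass. Their median log2 fold change of -0.04 was -0.03 with GFP-negative replicate 1 omitted. It turned to 0.01 with GFP-negative replicate 2 omitted, to 0.05 with GFP-positive replicate 1 omitted and to 0.20 with GFP-positive replicate 2 omitted. GFI1, a transcriptional repressor with roles in blood emergence, had 130 and 136 TPM in GFP-positive libraries, against 26.1 and 25.3 TPM in GFP-negative libraries (limma adjusted p = 0.0316). NFE2, a factor of red cells and megakaryocytes, had 60.2 and 40.8 TPM in GFP-positive libraries, against 6.07 and 5.28 TPM in GFP-negative libraries (limma adjusted p = 0.0403); the call held without GFP-negative replicate 2 and was lost without each of the other libraries (0.0501 to 0.0767). KLF1, a red cell factor that works beside GATA1, had 30.9 and 22.4 TPM in GFP-positive libraries, against 5.05 and 3.66 TPM in GFP-negative libraries, and did not pass (limma adjusted p = 0.069). SPI1, a myeloid factor known to oppose GATA1, had 31.4 and 46.9 TPM in GFP-positive libraries, against 14.7 and 8.44 TPM in GFP-negative libraries, and did not pass (limma adjusted p = 0.132). ERG, an ETS factor of endothelium and blood stem cells, went the other way, at 63.4 and 64.5 TPM in GFP-positive libraries, against 157 and 109 TPM in GFP-negative libraries (limma adjusted p = 0.122). CBFA2T3, a corepressor found in GATA1 complexes, missed narrowly, at 65.6 and 70.7 TPM in GFP-positive libraries, against 24.1 and 23.7 TPM in GFP-negative libraries (limma adjusted p = 0.056).

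The corepressors and coactivators that GATA and FOG proteins bind had no gene past the threshold. Of 27 such genes, 0 passed in limma, and their median log2 fold change was 0.06, against 0.02 over all tested genes; it was 0.01 with GFP-negative replicate 2 omitted, 0.03 with GFP-positive replicate 1 omitted and 0.15 with GFP-negative replicate 1 omitted. CHD4, the ATPase of NuRD that FOG proteins recruit, had 311 and 417 TPM in GFP-positive libraries, against 276 and 218 TPM in GFP-negative libraries (limma adjusted p = 0.299), the widest of the list among genes of at least 10 TPM, followed by TACC3, MTA3, KDM1A and RCOR1. The 9 other genes of GATA-type zinc finger proteins, such as GATAD1, RERE, and GATAD2A and MTA1 of NuRD, had a median of 0.09, which was 0.30 with GFP-positive replicate 1 omitted, 0.17 with GFP-negative replicate 1 omitted and 0.15 with GFP-negative replicate 2 omitted, and 0 passed.

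Of 29 tested erythroid GATA1 target genes, 3 rose, 0 fell and 26 did not pass; 23 lay above 0 and 6 below, with a median log2 fold change of 0.76. The 3 were HBG2, KEL and NFE2. KEL, the Kell blood group protein of red cells, had 97.9 and 115 TPM in GFP-positive libraries, against 11.3 and 12.9 TPM in GFP-negative libraries, or 3.03 ± 0.23 (SE) on the log2 scale (limma adjusted p = 0.0316). HBG2, a fetal gamma-globin gene, had 90.6 and 45.7 TPM in GFP-positive libraries, against 2.27 and 2.11 TPM in GFP-negative libraries (limma adjusted p = 0.0316). Globin genes are near-identical in pairs, so HBG2 and HBG1 may share reads. ADD2, a membrane skeleton gene of red cells and other cells, lay on the other side, at 3.06 and 3.35 TPM in GFP-positive libraries, against 26.8 and 17.6 TPM in GFP-negative libraries (limma adjusted p = 0.0756). HBA1, an adult alpha-globin gene, had 21.1 and 24.7 TPM in GFP-positive libraries, against 0 and 1.55 TPM in GFP-negative libraries, a difference that missed the threshold (limma adjusted p = 0.06).

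The start windows of the 9 list genes that passed were sought as for the members. SOX7 was left out of the search, and HBG2, NFE2, FLT4 and MYL4 had no window. Windows were read for 4 of the 9: GFI1, KEL, KIT and MYB. Of their 6 windows, 2 held a full GATA site, 1 of 3 of GFI1 and that of KEL, against 25% of all windows. The KEL window is shown because it held 2 full sites, with cores starting 61 and 25 bases before the start; the rest is in lower case.
KEL (chr7:142962364-142962613, minus strand): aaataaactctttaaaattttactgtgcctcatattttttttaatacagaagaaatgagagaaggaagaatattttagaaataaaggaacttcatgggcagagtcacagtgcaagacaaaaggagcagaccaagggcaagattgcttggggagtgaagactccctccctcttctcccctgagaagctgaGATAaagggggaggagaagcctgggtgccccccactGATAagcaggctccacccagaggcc
A match of letters does not show that a GATA factor binds there in these cells.

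Of 16 tested megakaryocyte GATA1 target genes, 0 passed in limma; 14 lay above 0, and the median was 0.52, or 0.83 without GFP-positive replicate 1. ITGB3, an integrin subunit of platelets, had 30.6 and 29.5 TPM in GFP-positive libraries, against 5.11 and 5.36 TPM in GFP-negative libraries, and missed at a limma adjusted p of 0.0541. ITGA2B, its partner, had 59.2 and 79.6 TPM in GFP-positive libraries, against 25.55 and 30.9 TPM in GFP-negative libraries (limma adjusted p = 0.104). GP1BA, GP6 and RAB27B also lay above 0 and VWF below it, at 37.0 and 33.1 TPM in GFP-positive libraries, against 86.9 and 72.97 TPM in GFP-negative libraries; none of these 4 passed. The 8 megakaryocyte markers summed to 146 and 182 TPM in GFP-positive libraries, against 86.4 and 101 TPM in GFP-negative libraries, with PPBP listed at 0 in all 4, 5 of 6 tested above 0 and 0 passing. PF4, a platelet chemokine, was alike in both, at 31.3 and 35.4 TPM in GFP-positive libraries, against 26.75 and 35.6 TPM in GFP-negative libraries.

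Of 7 tested mast cell, basophil and eosinophil genes, which include GATA1 itself, 0 rose and 1 fell. KIT, the stem cell factor receptor, had 6.16 and 6.43 TPM in GFP-positive libraries, against 36.7 and 35.8 TPM in GFP-negative libraries (limma adjusted p = 0.0483). Its call was lost whichever library was left out (limma adjusted p = 0.0594 to 0.176). The list's median was 0.59, but -0.18 with GFP-positive replicate 2 omitted and 0.30 with GFP-negative replicate 1 omitted. Mast cell markers were near 0. The 6 listed summed to 5.93 and 8.96 TPM in GFP-positive libraries, against 1.34 and 3.13 TPM in GFP-negative libraries. MS4A2 was listed at 0 in all 4. The 2 tested lay above 0 and 0 passed. These 2, FCER1A and HDC, reached 1 TPM in GFP-positive libraries only, so the filter on low values fixed their direction.

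Of 22 GATA2-linked stem cell and hemogenic genes, 2 rose (GFI1 and MYB), 1 fell (KIT) and 19 did not pass, with a median log2 fold change of 0.11 that was -0.02 with GFP-negative replicate 2 omitted, 0.23 with GFP-negative replicate 1 omitted and 0.07 with GFP-positive replicate 2 omitted. MYB, a factor of definitive blood progenitors, had 59.8 and 58.4 TPM in GFP-positive libraries, against 13.0 and 8.92 TPM in GFP-negative libraries (limma adjusted p = 0.0439), a call lost whichever library was left out (0.0535 to 0.0808). RUNX1, the factor that drives the endothelial to blood transition, had 198 and 328 TPM in GFP-positive libraries, against 96.5 and 134 TPM in GFP-negative libraries, and did not pass (limma adjusted p = 0.159). BMP4, a signalling protein known to lie upstream of GATA2 in blood formation, had 8.41 and 10.3 TPM in GFP-positive libraries, against 26.9 and 70.75 TPM in GFP-negative libraries (limma adjusted p = 0.14).

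Endothelial GATA2 target genes lay mostly on the other side of 0 from GATA2 itself. Of 22 tested, 0 rose, 1 fell and 21 did not pass, and 21 of the 22 lay below 0, with a median log2 fold change of -0.77. FLT4, the VEGF receptor of lymphatic and other endothelium, had 104 and 111 TPM in GFP-positive libraries, against 347 and 340 TPM in GFP-negative libraries (log2 fold change -1.67 ± 0.14, SE; limma adjusted p = 0.0316), a call lost without GFP-negative replicate 1 (0.0641). EMCN, the endothelial sialomucin endomucin, had 18.8 and 12.0 TPM in GFP-positive libraries, against 194 and 91.45 TPM in GFP-negative libraries, and missed at a limma adjusted p of 0.0519. CDH5, the cadherin of endothelial junctions, had 329 and 314 TPM in GFP-positive libraries, against 767 and 623 TPM in GFP-negative libraries, and missed as well (limma adjusted p = 0.0524); ENG and FOXC2 also lay below 0 without passing. PROX1, a lymphatic factor, was the 1 above 0, at 3.74 and 2.80 TPM in GFP-positive libraries, against 1.49 and 1.76 TPM in GFP-negative libraries.

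**Figure D4:**
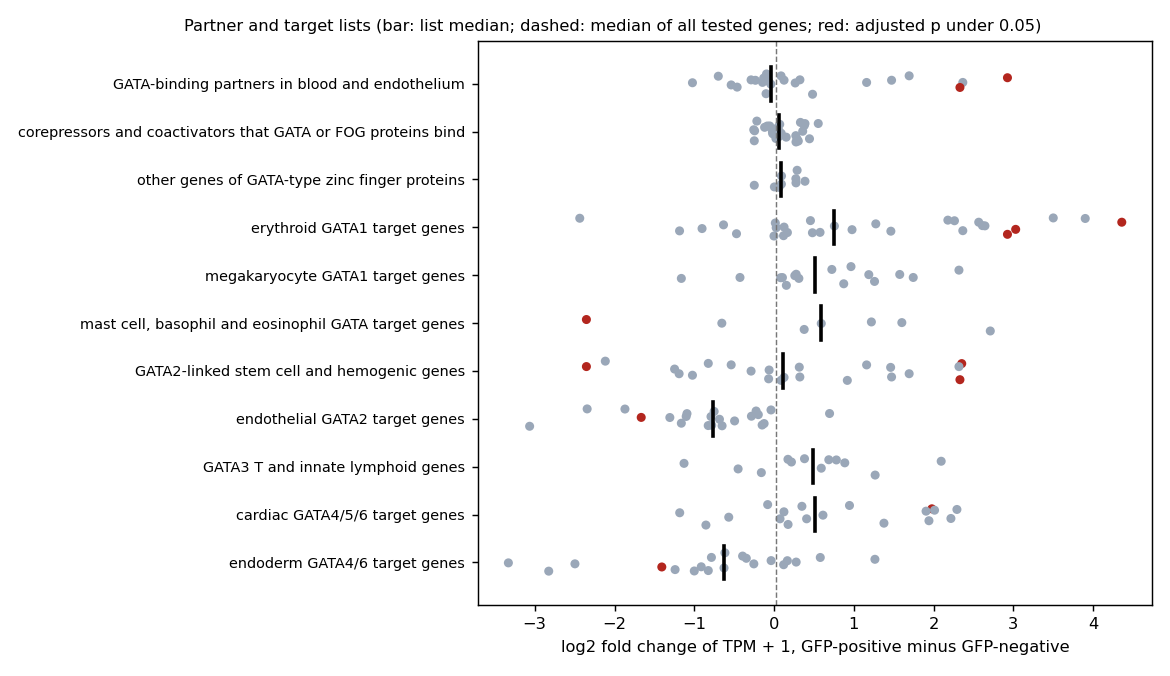
Log2 fold change of TPM + 1 (GFP-positive minus GFP-negative) of every tested gene in each of the 11 lists; black bars are list medians, the dashed line is the median of all tested genes (0.02), and red points passed an adjusted p of 0.05. The erythroid list spreads furthest to the right (median 0.76), the endothelial list lies almost wholly to the left (median -0.77), and the cofactor list is narrow around 0.06.

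Of 18 tested cardiac GATA4/5/6 target genes, 1 rose, 0 fell and 17 did not pass, with a median log2 fold change of 0.51 that moved to 1.00 with GFP-positive replicate 2 omitted, to 0.93 with GFP-negative replicate 1 omitted and to 0.31 with GFP-negative replicate 2 omitted. The 1 was MYL4, an atrial and embryonic myosin light chain, at 365 and 314 TPM in GFP-positive libraries, against 74.75 and 97.2 TPM in GFP-negative libraries (limma adjusted p = 0.0316). BMP10, a heart ligand, had 38.4 and 49.97 TPM in GFP-positive libraries, against 6.53 and 10.1 TPM in GFP-negative libraries, and did not pass (limma adjusted p = 0.0599). NKX2-5, a heart factor that binds GATA4, had 8.59 and 7.49 TPM in GFP-positive libraries, against 18.4 and 12.7 TPM in GFP-negative libraries. MEF2C, a factor of heart and endothelium, also stood lower, at 59.6 and 47.7 TPM in GFP-positive libraries, against 122 and 123 TPM in GFP-negative libraries (limma adjusted p = 0.0674). ACTC1 stood higher, at 23.8 and 18.4 TPM in GFP-positive libraries, against 6.23 and 3.52 TPM in GFP-negative libraries (limma adjusted p = 0.12). ACTC1, HAND1 and TNNC1 did not pass either.

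Of 20 tested endoderm GATA4/6 target genes, 0 rose, 1 fell and 19 did not pass; 15 lay below 0, with a median log2 fold change of -0.62. The 1 was SOX7, a SOX factor also of endothelium, at 71.5 and 72.5 TPM in GFP-positive libraries, against 202 and 184 TPM in GFP-negative libraries (limma adjusted p = 0.0391), a call lost whichever library was left out (0.0541 to 0.13). APOA1, an apolipoprotein of liver and gut, had 8.42 and 7.41 TPM in GFP-positive libraries, against 38.0 and 63.6 TPM in GFP-negative libraries (limma adjusted p = 0.0541). SOX17, a factor of endoderm and of arterial and hemogenic endothelium, had 3.51 and 2.45 TPM in GFP-positive libraries, against 36.2 and 20.01 TPM in GFP-negative libraries (limma adjusted p = 0.0666). HHEX, COL4A1 and COL4A2 did not pass. Of 12 tested genes of T and innate lymphoid cells linked to GATA3, 0 passed in limma, 9 lay above 0 and the median was 0.49 (0.22 without GFP-negative replicate 1), while GATA3 itself was below 0. ID2, an inhibitor of helix-loop-helix factors, had 410 and 418 TPM in GFP-positive libraries, against 268 and 216 TPM in GFP-negative libraries (limma adjusted p = 0.107), and ZBTB7B did not pass.

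Markers of other cells follow. The 8 myeloid markers summed to 35.8 and 41.8 TPM in GFP-positive libraries, against 31.8 and 35.5 TPM in GFP-negative libraries, with 3 of 5 tested above 0 and ELANE at 0 in all 4. The 7 pluripotency markers summed to 710 and 582 TPM in GFP-positive libraries, against 502 and 474 TPM in GFP-negative libraries, with 3 of 6 tested above 0. Of these, NANOG was at 1.19 TPM or lower in all 4, POU5F1 had 0.93 and 0.03 TPM in GFP-positive libraries, against 9.68 and 5.88 TPM in GFP-negative libraries (limma adjusted p = 0.131), and LIN28A made up most of the sum, at 477 and 386 TPM in GFP-positive libraries, against 304 and 287 TPM in GFP-negative libraries. The 6 proliferation markers summed to 768 and 672 TPM in GFP-positive libraries, against 618 and 508 TPM in GFP-negative libraries, all 6 above 0. None of these 3 lists had a gene that passed in limma.

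**Figure D5:**
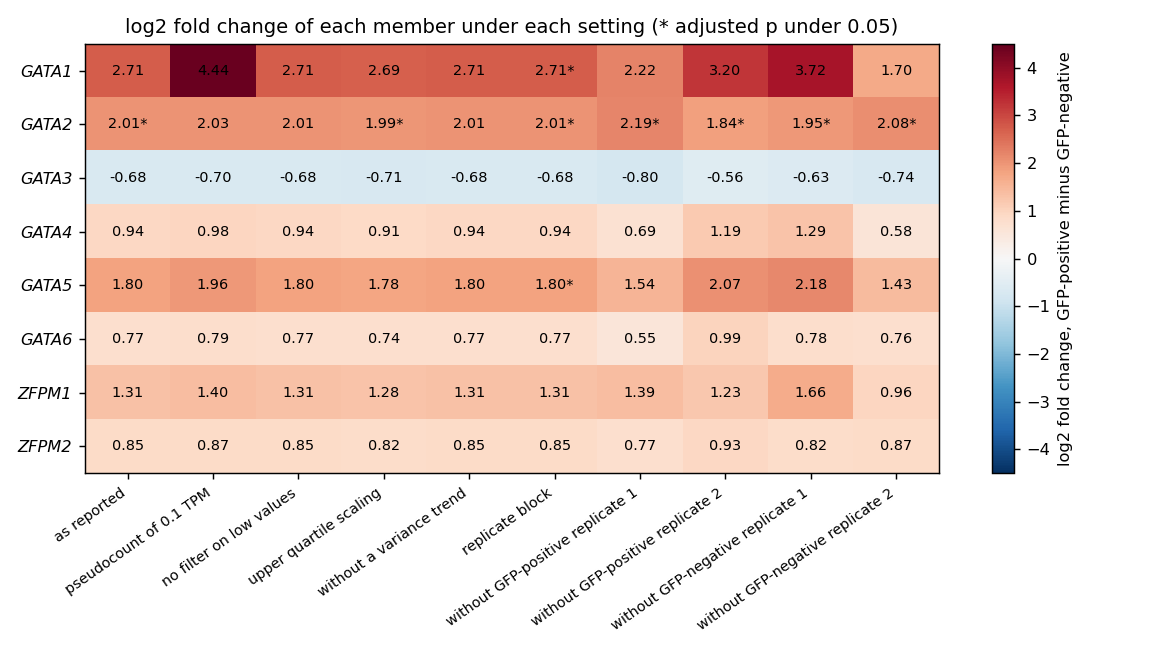
Log2 fold change (GFP-positive minus GFP-negative) of each member as reported and under each of 9 alternatives; stars mark an adjusted p under 0.05. No member changes direction; GATA2 keeps its star in 6 of the 9, and GATA1 and GATA5 gain a star with the replicate number as a block.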

How the data were processed

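The authors deposited 1 table per library, with an Ensembl identifier, a gene symbol and a value; the 4 hold the same 28285 rows. The deposited values are taken as TPM because they sum to 996324 to 997293 per library and the submitters' processing notes name RSEM, beside Bowtie and the builds hg19 and mm10, with no versions or roles; the annotation is not given in the sources used here. Libraries were grouped by title. Limma 3.58.1 in R 4.3.3 was fitted with a variance trend to log2(TPM + 1) for the 15425 genes that reached 1 TPM in 2 or more libraries, two-sided, with Benjamini-Hochberg adjustment over all of them and 0.05 as the threshold; it was tested on simulated data. A count model had been planned for the case of counts. The members, lists and naming rule were chosen with earlier results of these data known. All members, list genes past the threshold, and up to 5 more per list with the largest log2 fold change at a mean of at least 10 TPM are named, except for results not reported here; markers, neighbouring genes, and PROX1, PF4, IL2RB and NKX2-5 were named after their values were seen. There were 11 gene lists and 11 marker lists, described by counts and medians only. For a repeated symbol (87 repeats), the row was chosen by its Ensembl identifier in the gene name table. Depth cannot be had from TPM.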

Additional observations from a re-analysis of the deposited data

How the results depend on the processing

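None of the 8 members changed direction under 9 alternatives: a pseudocount of 0.1 TPM, no filter on low values, upper quartile scaling, no variance trend, a block for the replicate number, and the omission of each library in turn. GATA2 stood at 2.03 on the log2 scale (limma, adjusted p = 0.0638) with a pseudocount of 0.1 TPM, of 2.01 (0.0699) with no filter and of 2.01 (0.135) without a variance trend. In each of these 3 settings limma called 0 genes higher and 0 lower, 0 members and 0 list genes (2101, 2230 and 2072 genes had an unadjusted p under 0.05); the cause was not tested. With a library left out, GATA2 passed each time, with log2 fold changes of 1.84 to 2.19. Over those 4 fits 10 to 36 genes were called higher and 1 to 48 lower, the 1 being without GFP-negative replicate 1, and 0 to 3 list genes were called lower. GATA2's share of the summed GATA TPM stood 17.0 to 29.2 percentage points higher in GFP-positive cells, against 23.1 with all libraries.

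With the replicate number as a block, limma called 228 genes higher and 368 lower, 3 members (GATA1, adjusted p = 0.0264; GATA2, 0.000353; GATA5, 0.0338) and 26 list genes higher and 22 lower. The labels do not say that a number marks a shared batch, and deviations of same-numbered libraries had a correlation of 0.0719 over tested genes, so the numbers were not taken to pair the libraries. Of 196 list medians recomputed, 32 moved by more than the spread between libraries and 10 changed sign. Those of the 11 gene lists that 1 library moved by over 1.5 times are given with their lists. The 196 include the marker lists, whose medians are not printed and of which some moved as far. The median of the megakaryocyte markers went from 0.41 to 0.80 with GFP-negative replicate 2 omitted. Values of a few TPM, such as GATA1 in GFP-negative cells, are limited by depth, which is unknown.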
